A study of Mus musculus with 8 samples.

Results

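Imprinted genes are transcribed mainly from the chromosome copy inherited from one parent, and methylation of CpG-rich control regions, set in the egg or sperm, marks which copy is used. Many of them act on growth before and shortly after birth and are turned down as the juvenile animal matures. In skeletal progenitors they include secreted or membrane signals, zinc finger transcription factors and brakes on the cell cycle or on growth factor receptors. The 10 imprinted growth genes described here are Nnat, Blcap, Dlk1, Peg3, Plagl1, Grb10, Ndn, Cdkn1c, Sgce and Mest, found by symbol among 22053 rows of a table of protein-coding genes. Nnat was chosen by its measured FPKM excess in cells from the spine, so its difference between the sites is a description without a test. The other 9 were picked as imprinted growth genes, or, for Blcap, as the gene that surrounds Nnat, with earlier results of these data known.

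RNA was sequenced in bulk from 8 libraries of WT mice at postnatal day 10, with 2 male and 2 female libraries per site (replicates 1 and 2 male, 3 and 4 female). Cells labelled vSSC, candidate vertebral skeletal stem cells, came from the spine. Cells labelled lbSSC, their long bone counterparts, came from femur and tibia. Every library was sorted on one surface phenotype, CD31-TER119-CD45-Thy-6C3-CD200+CD105-. The samples are named biological replicates with no number of animals given, so p-values measure only the spread between these samples. Values are FPKM, which correct fragment counts for the length of a transcript and the size of a library, and they do not tell parental alleles apart. In bulk RNA, fewer cells of a type and less RNA per cell cannot be told apart.

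Site labels and sort were checked first. Pax1, a transcription factor of the vertebral column, was at 34.3 to 49.7 FPKM in vSSC and 1.13 to 2.96 in lbSSC, whereas Shox2, a limb factor, was at 0.268 to 0.487 and 33.9 to 45.4. Of the sorting antigens, Pecam1, Ptprc, Thy1, Enpep and Eng reached at most 1.76 FPKM and Cd200 lay between 84.2 and 142.7. The cartilage genes Col2a1, a collagen, and Sox9, its transcription factor, were at 7443 to 20002 and 64.7 to 190.7. Library sums ran from 460302 to 571869 FPKM and 80 ribosomal protein genes took 18.0% to 21.1% of the sum in vSSC and 15.4% to 18.1% in lbSSC. Without read totals, which were not used here, the counting error of a value is unknown.

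The 10 members lie on 6 chromosomes of GRCm38, and several lie beside another gene. Nnat (neuronatin, a small membrane protein of the endoplasmic reticulum best known from developing brain) lies on the forward strand at chr2:157560078-157562522, inside Blcap at chr2:157556362-157571274 on the reverse strand. In 3 of the 6 annotated Blcap transcripts Nnat falls within a single intron, and 0 share exon bases with it. The library chemistry does not mark strand, so intronic Blcap reads and Nnat reads cannot be told apart where the genes overlap. Mest likewise overlaps Copg2 on the opposite strand.

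CpG-rich start regions are where parental methylation is often read, and RefSeq windows (GRCm38.p6, 250 bases before to 50 after a start) were found for 8 members, not for Cdkn1c or Sgce. CpG pairs numbered 45 in the window of Grb10, 26 in Plagl1, 17 in Nnat and 17 in Blcap, 13 in Peg3, 11 in Ndn, 9 in Dlk1 and 8 in Mest, against a median of 7 over 32841 windows. Mest had 3 windows and Grb10 had 2, and only that nearest the outermost annotated start was counted. The start used was at 30733506 for Mest, 13090832 for Plagl1 and 157566361 for Blcap. Their outermost annotated starts are at 30723547, 13060504 and 157571274, so these counts describe an inner start. The starts coincided only for Nnat and Dlk1. GGGGCCCC, a palindrome reported as bound by Plagl1 and therefore the same on both strands, occurred in the Peg3 window, 1 of the 8, and in 1.08% of all windows. The stretches below, 150 bases directly before the RefSeq start on the gene's own strand, belong to 3 genes that the site comparison turns on, with CpG in capitals. They show the start regions of Nnat and of the members with lower values in every vSSC library and an adjusted p under 0.05, and methylation was not measured here.
Nnat, chr2:157559928-157560077, forward strand: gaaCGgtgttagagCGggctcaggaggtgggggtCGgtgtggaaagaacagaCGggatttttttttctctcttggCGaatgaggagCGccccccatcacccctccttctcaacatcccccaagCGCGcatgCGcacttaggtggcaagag
Dlk1, chr12:109452673-109452822, forward strand: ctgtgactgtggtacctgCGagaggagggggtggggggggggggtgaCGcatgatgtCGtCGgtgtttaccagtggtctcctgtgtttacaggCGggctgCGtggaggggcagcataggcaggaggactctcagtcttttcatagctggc
Peg3, chr7:6730420-6730569, reverse strand: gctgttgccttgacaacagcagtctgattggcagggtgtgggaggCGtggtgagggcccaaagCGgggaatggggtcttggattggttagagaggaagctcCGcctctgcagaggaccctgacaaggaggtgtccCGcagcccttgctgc
The Nnat stretch holds 9 CpG pairs, that of Dlk1 holds 6 and that of Peg3 holds 4. Of the Peg3 bases, 12 lie in an annotated exon of the gene.

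Apart from Nnat, the members Dlk1, Peg3 and Plagl1 were lower in vSSC than in lbSSC. The list was drawn up with earlier results of these data known, which limits the weight of these tests. Of the 9 members other than Nnat, 0 were higher in vSSC, 3 were lower and 6 did not pass the test (limma, a linear model fitted across genes, on log2(FPKM + 1), adjusted p under 0.05 over all 10729 genes tested). Over all tested genes 23.5% were called, 14.3% higher and 9.17% lower. The median difference, vSSC minus lbSSC, was -0.22 on the log2 scale over the 9 members and 0.08 over all tested genes. Another scaling of the libraries moved that overall median by up to 0.13, and differences are therefore also read relative to it.

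In vSSC the order of mean level, in FPKM and thus per length, was Dlk1 at 1035, Cdkn1c at 590.7, Mest at 567.6, Grb10 at 120.3, Plagl1 at 115.8, Ndn at 41.3, Peg3 at 40.4, Sgce at 37.6, Nnat at 28.3 and Blcap at 20.0. Neighbours within Cdkn1c and Mest, within Grb10 and Plagl1, and from Ndn to Blcap lay within about 1 SD of each other. In lbSSC Nnat, at 2.97, was the lowest member and Dlk1, at 2097, again the highest.

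**Figure D1:**
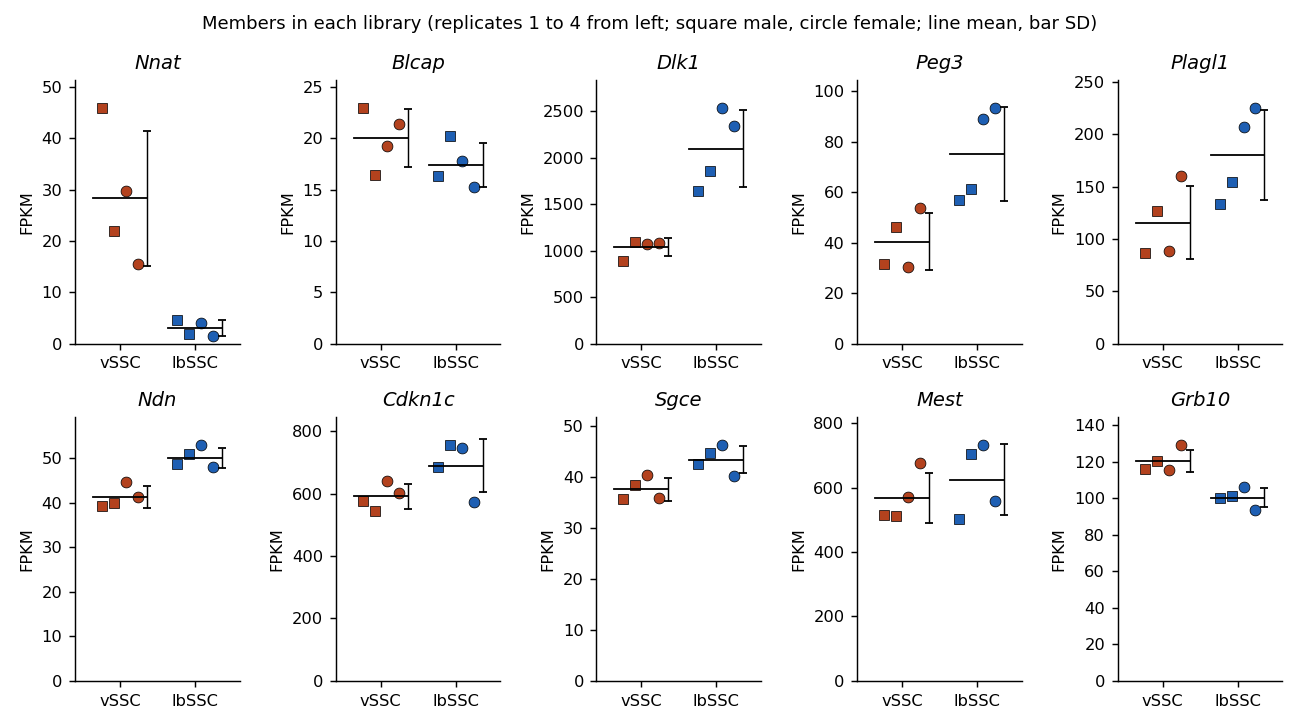
FPKM of the 10 members in each library, with vSSC in red and lbSSC in blue, squares for males, circles for females, a line at the group mean and a bar of 1 SD (4 libraries per site, axes starting at 0). Nnat lies higher in all 4 vSSC libraries, and Dlk1 and Peg3 lie higher in all 4 lbSSC libraries. The sites of Blcap, Mest, Cdkn1c, Plagl1 and Sgce overlap.

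Nnat stood at 45.9, 22.0, 29.7 and 15.6 FPKM in vSSC replicates 1 to 4 and at 4.53, 1.85, 4.06 and 1.44 in lbSSC replicates 1 to 4. Every vSSC library was above every lbSSC library, and the nearest pair was 3.44-fold apart. The means were 28.3 ± 13.1 and 2.97 ± 1.55 FPKM (SD, n = 4 each), a 9.52-fold ratio, and the difference was 2.86 ± 0.33 on the log2(FPKM + 1) scale (SE). Relative to the median of all genes it was 2.78. It ranged from 2.60 without vSSC replicate 1 to 3.10 without vSSC replicate 4.

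Blcap, a small membrane protein first found as lost in bladder cancer, was at 23.0, 16.4, 19.3 and 21.4 FPKM in vSSC and 16.3, 20.2, 17.8 and 15.2 in lbSSC. The sites overlapped, with means of 20.0 ± 2.84 and 17.4 ± 2.16 (SD, n = 4 each). The difference of 0.19 ± 0.13 (SE) did not pass (limma adjusted p = 0.320). The ratio of Nnat to Blcap, both per length, was 2.00, 1.34, 1.54 and 0.729 in vSSC and 0.277, 0.0913, 0.229 and 0.0943 in lbSSC. Nnat thus exceeded its surrounding gene in 3 of 4 vSSC libraries and in 0 of 4 lbSSC libraries.

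Nnat is best known from neurons, so marker lists of other cell types were set beside it. The 9 neuron markers summed to 18.6, 12.3, 8.004 and 12.4 FPKM in vSSC and to 8.85 to 11.3 in lbSSC, with 2 of them at 1 FPKM or more in at least 4 libraries. Map2 and Uchl1, those 2, were tested and not called. Stmn2, a neuronal tubulin regulator, was at 5.36, 1.14, 0.198 and 0 in vSSC and at most 0.0764 in lbSSC. Nefl, a neurofilament subunit, was at 0.218, 0.350, 0.564 and 0.601 in vSSC, while each of the 4 lbSSC libraries lists it at 0. Rbfox3, which marks neuron nuclei, was listed at 0 in every vSSC library, and Snap25, Elavl4, Syt1 and Prph reached at most 1.03 FPKM in any library. Among the vSSC libraries the one highest in Nnat, replicate 1, was highest in Stmn2, and the one lowest in Nnat, replicate 4, was highest in Nefl and Map2. The part of neurons in the Nnat values was not tested.

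Further lists were higher at the spine without overlap. Schwann cell markers, 8 genes, summed to 123.4 to 147.6 FPKM in vSSC and 93.0 to 114.7 in lbSSC. Most of that sum came from S100b, which cartilage also expresses. Of the 5 tested, 3 were called higher, beside 14.3% of all tested genes. Skeletal muscle markers, 8 genes, summed to 19.1 to 31.0 and 5.24 to 6.86, with Myod1 and Myf5 at 0 in all libraries. Of the 2 tested, Tnnt3, a fast troponin, was called higher and Mylpf was not (limma adjusted p = 0.102). Des, not tested, was lower at the spine, at 0.203 to 0.225 FPKM in vSSC and 0.426 to 0.731 in lbSSC. Endothelial markers, 7 genes, summed to 3.82 to 6.96 and 1.80 to 3.00, and the only 1 tested was called higher. Blood markers, 10 genes led by Hbb-bs, a beta globin, summed to 3711 to 5055 and 3849 to 7879 with overlap. Of the 8 tested, 4 were called higher in vSSC. The part of these cells in the Nnat values was not tested.

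Likeness of pattern over the 8 libraries was the root mean square difference of profiles scaled to mean 0 and SD 1. Tested genes named only by a clone or gene-model number were left out. Among the rest, the 5 closest to Nnat were Nop58 at 0.130, Vldlr at 0.153, Cul2 at 0.167, Pold4 at 0.168 and Hn1 at 0.176. Nop58 is a nucleolar protein of ribosome production and Vldlr a lipoprotein receptor. Their size of difference was smaller than that of Nnat, with Nop58 at 78.0 ± 8.54 and 51.5 ± 4.23 FPKM and Vldlr at 10.1 ± 2.14 and 4.22 ± 0.840 (SD, n = 4 each). The closest member was Grb10 at rank 1596 of the genes so ranked, and Blcap stood at rank 3917. This likeness rests largely on the excess in vSSC for which Nnat was chosen, so members lower there had to rank far from it.

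Dlk1 encodes a membrane protein with EGF-like repeats, also shed from the cell, that holds back fat cell differentiation (chr12:109452823-109463336). It was the most abundant member and was lower at the spine. Its libraries were at 889.9, 1095, 1071 and 1085 FPKM in vSSC and 1643, 1860.4, 2537 and 2347 in lbSSC. No libraries overlapped, and the nearest pair was 1.5-fold apart. The means were 1035 ± 97.5 and 2097 ± 415.6 (SD, n = 4 each), 2.03-fold higher in lbSSC, with a difference of -1.0 ± 0.15 (SE, limma adjusted p = 0.000936).

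The call for Dlk1 held in each of 21 alternatives, with adjusted p from 0.000312 to 0.0425. The size moved to -0.61 once the ribosomal protein share entered as a covariate (vSSC replicate 4 and lbSSC replicate 1 were the libraries in which that share met between the sites). Dlk1 made up 37.7% to 42.8% of the summed FPKM of the 10 members in vSSC and 49.6% to 58.8% in lbSSC, and that sum was 2359 to 2819 FPKM in vSSC and 3233 to 4538 in lbSSC. Adipocyte markers, 7 genes, summed to 7.52 to 12.02 FPKM in vSSC and 9.97 to 22.5 in lbSSC, with overlap between the sites. Of the 4 tested, 2 were called lower in vSSC, beside 9.17% of all tested genes. The part of fat cells in the Dlk1 values was not tested.

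Peg3 and Plagl1, both zinc finger transcription factors, were lower in vSSC, with weaker support than Dlk1. Plagl1 is known to regulate other imprinted genes. Peg3 (chr7:6703892-6730431) was at 31.5, 46.2, 30.3 and 53.7 FPKM in vSSC and 56.7, 61.3, 89.0 and 93.4 in lbSSC. No libraries overlapped, but the nearest pair was only 1.06-fold apart. The means were 40.4 ± 11.4 and 75.1 ± 18.8 (SD, n = 4 each) and the difference was -0.88 ± 0.21 (SE, limma adjusted p = 0.0127). The call was lost without vSSC replicates 1 and 3 together (-0.55, adjusted p = 0.138), with no filter on low values (0.0986) and once the ribosomal protein share entered as a covariate (-0.05, 0.872).

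Plagl1 (chr10:13060504-13131694) was at 87.0, 127.1, 88.3 and 160.7 FPKM in vSSC and 133.5, 155.0, 207.0 and 225.3 in lbSSC. The sites overlapped, since vSSC replicate 4 was above lbSSC replicates 1 and 2. The means were 115.8 ± 35.2 and 180.2 ± 43.1 (SD, n = 4 each) and the difference was -0.65 ± 0.22 (SE, limma adjusted p = 0.0484). That p lay just under the threshold. Of 21 alternatives, 12 lost the call with the sign kept, and in 1, the ribosomal covariate, the sign turned (0.20). Leaving out any 1 of vSSC replicates 1, 2 or 3 or of lbSSC replicates 2, 3 or 4 ended the call (adjusted p from 0.0577 to 0.137). So did a pseudocount of 0.1 (0.0509) or 0.01 (0.0529) and no variance trend (0.0664). With no filter on low values the limma adjusted p was 0.213, and without vSSC replicates 1 and 3 together it was 0.418.

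**Figure D2:**
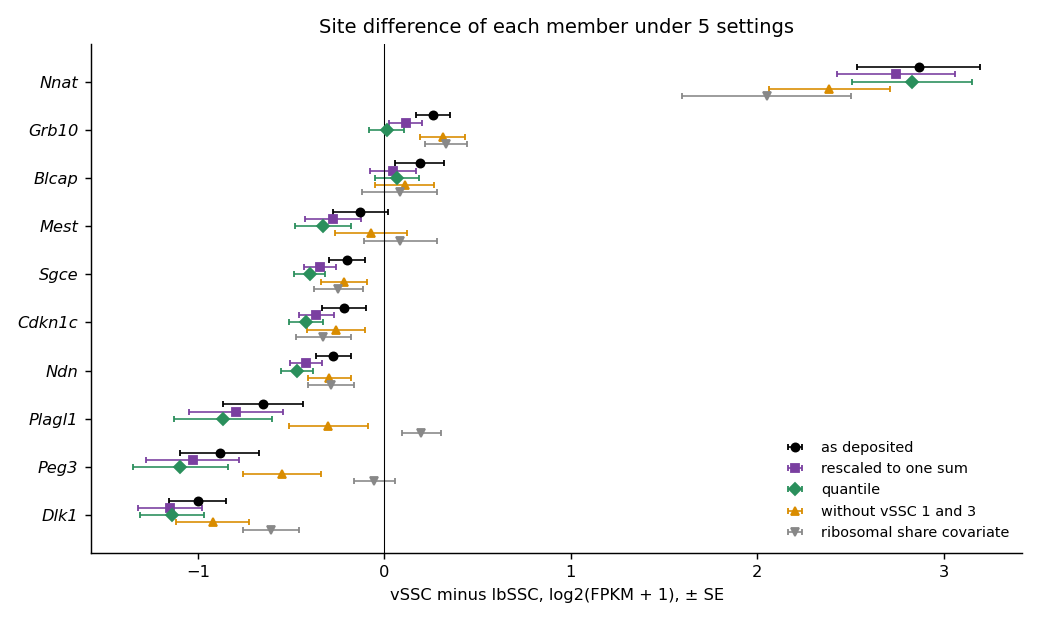
Site difference (vSSC minus lbSSC) in log2(FPKM + 1) units with bars of 1 SE, for the 10 members as deposited and under 4 alternatives (rescaled to one sum, quantile normalization, without vSSC replicates 1 and 3, a covariate of ribosomal protein share). Nnat (2.86 as deposited, no test) lies far to the right and Dlk1 to the left under each setting shown, while Peg3 and Plagl1 reach -0.05 and 0.20 with the covariate.

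Of the 3 brakes on growth, Cdkn1c, Ndn and Grb10, 0 passed the test as deposited, although Ndn and Grb10 did not overlap between sites. Cdkn1c, the cell cycle inhibitor p57 that growth plate chondrocytes need to leave the cell cycle (chr7:143458339-143461050), was at 575.9, 545.6, 639.3 and 602.1 FPKM in vSSC and 685.1, 754.4, 747.0 and 571.9 in lbSSC. The lowest lbSSC library fell among those of vSSC, and the difference of -0.22 ± 0.12 (SE) did not pass (limma adjusted p = 0.198). Ndn, necdin, a MAGE family protein that restrains growth (chr7:62346569-62350262), was at 39.2, 40.0, 44.6 and 41.2 in vSSC and 48.7, 51.0, 52.8 and 47.9 in lbSSC. Its libraries did not overlap, with the nearest 1.07-fold apart, and the difference was -0.27 ± 0.09 (SE, limma adjusted p = 0.0548).

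Grb10, an adaptor that dampens insulin and IGF receptor signalling (chr11:11930508-12038683), went the other way in value. It was at 116.1, 120.4, 115.6 and 129.0 FPKM in vSSC and 99.9, 101.4, 106.2 and 93.5 in lbSSC. The libraries did not overlap, with the nearest pair 1.09-fold apart, and the difference of 0.26 ± 0.09 (SE) did not pass (limma adjusted p = 0.0605). It was called with no filter on low values (limma adjusted p = 0.0330). Over 21 alternatives it ranged from 0.01, under quantile normalization, to 0.37. Relative to the median of all genes it was 0.18, and -0.02 under quantile normalization.

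Of the remaining pair, Sgce encodes epsilon-sarcoglycan, a membrane protein that links cell and matrix (chr6:4674350-4747207), and was at 35.7, 38.4, 40.4 and 35.8 FPKM in vSSC and 42.5, 44.6, 46.2 and 40.2 in lbSSC. The highest vSSC library was just above the lowest of lbSSC, and the difference was -0.20 ± 0.10 (SE, limma adjusted p = 0.151). Mest, a hydrolase-like protein of the endoplasmic reticulum (chr6:30723547-30748465), was at 514.7, 510.4, 570.6 and 674.7 in vSSC and 503.5, 704.0, 731.0 and 558.2 in lbSSC. Its sites overlapped broadly, and the difference of -0.13 ± 0.15 (SE) did not pass (limma adjusted p = 0.547). Of the 9 members, 4 had groups that did not overlap, beside 25.8% of all tested genes. When the libraries were rescaled by median of ratios, quantiles or one sum, 6 of the 9 were called lower, with Ndn, Cdkn1c and Sgce joining the other 3. Under those scalings 11.5%, 10.2% and 12.7% of all tested genes were called lower, beside 9.17% as deposited.

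Scatter between libraries of one site set the members apart as well. The pooled SD within sites on the log2 scale was 0.61 for Nnat, above that of 98.8% of the 500 tested genes nearest to it in level. For Peg3 it was 0.38, at percentile 97.8, and for Plagl1 0.39, at percentile 97.2. Ndn at 0.072, Grb10 at 0.074 and Sgce at 0.084 were at percentiles 2.2, 3.8 and 5.2. Blcap, Dlk1, Mest and Cdkn1c lay between percentiles 27.8 and 69.2.

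**Figure D3:**
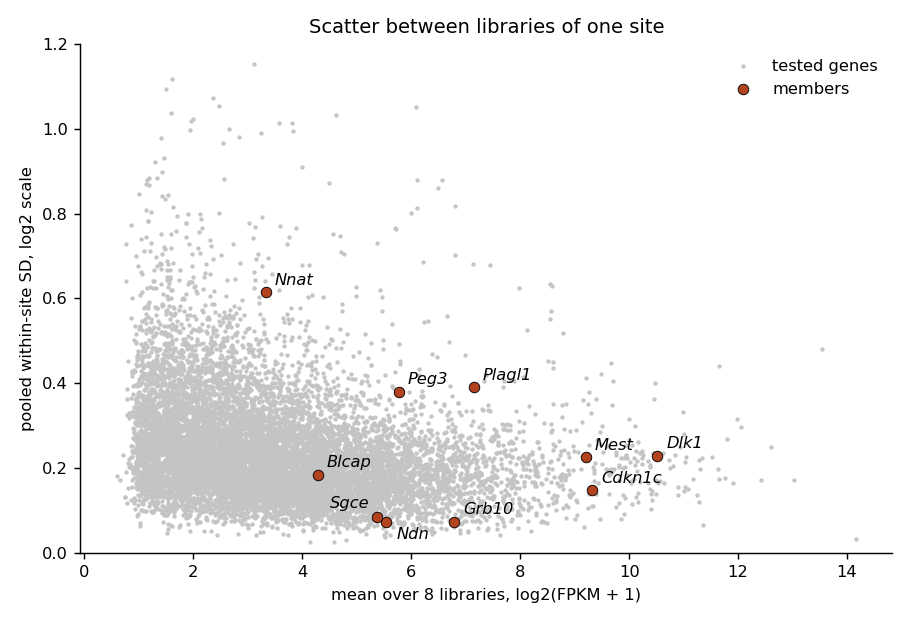
Pooled SD between libraries of one site (log2 scale) against the mean over 8 libraries in log2(FPKM + 1), with tested genes in grey and members in red (14 genes lie above the axis top of 1.2). Nnat, Peg3 and Plagl1 lie along the upper edge of the cloud, and Ndn, Grb10 and Sgce along its lower edge.

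Peg3 and Plagl1 moved together across libraries, and so did a length measure computed from the same FPKM values. Whether that measure is technical or reflects cell makeup was not tested. For each library the median deviation from the site mean of genes with transcripts of 5000 bases or more was compared with that of genes under 1500 bases. This length tilt was -0.14, 0.08, -0.22 and 0.26 in vSSC and -0.23, -0.12, 0.13 and 0.21 in lbSSC on the log2 scale. Peg3 and Plagl1, with longest transcripts of 8694 and 5260 bases, deviated with the sign of the tilt in all 8 libraries. Grb10, at 5061 bases, deviated by at most 0.101 and went against the tilt in lbSSC replicates 2 and 4 (0.018 and -0.097). Nnat, with a longest transcript of 1448 bases, deviated against the tilt in 6 of 8 libraries, the others being lbSSC replicates 2 and 3.

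Some of the 8 skeletal markers were low in the same vSSC libraries. Col2a1 was at 7443, 13426, 7528 and 15067 FPKM in vSSC and 11146, 10803, 14634 and 20002 in lbSSC. Sox9 was at 72.1, 129.4, 64.7 and 190.7 in vSSC and 72.7, 93.0, 111.5 and 117.6 in lbSSC, and Acan, the main cartilage proteoglycan, at 290.6, 543.5, 261.6 and 672.9 and at 392.6, 398.1, 511.6 and 605.1. The vSSC replicates 1 and 3, low in Peg3 and Plagl1, were thus low in these 3, and also in Runx2 and Col10a1. Sp7, an osteoblast factor, was lowest in them by less, at 41.5, 45.4, 43.1 and 49.0 in vSSC. Ihh, a signal of maturing growth plate chondrocytes, did not follow these libraries, at 83.6, 103.3, 99.2 and 89.9 in vSSC and 35.5, 42.9, 28.2 and 24.9 in lbSSC. Nor did Prrx1, a limb mesenchyme factor, at 15.3, 16.0, 21.0 and 12.2 in vSSC. Between the sites 2 of the 8 were called higher in vSSC, Ihh (1.51) and Sp7 (0.61). The 2 called lower were Col10a1, the collagen of hypertrophic cartilage (-1.25), and Prrx1 (-0.92). Those 4 calls were made by limma with adjusted p of 6.93e-05, 0.00493, 0.000176 and 0.00702. The part of skeletal cell makeup in the member values was not tested.

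With the trend on transcript length removed, Peg3 differed by -0.65 (limma adjusted p = 0.00853), Plagl1 by -0.53 (0.0523), Grb10 by 0.37 (0.0111) and Cdkn1c by -0.31 (0.0435). The 3 of these past the threshold and Dlk1 made 4 members called.

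**Figure D4:**
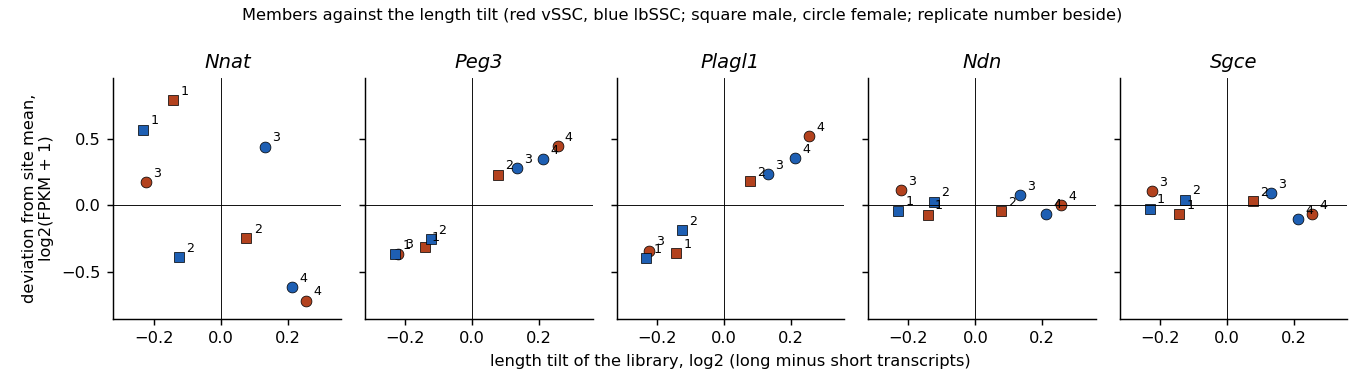
Deviation of 5 members from the site mean (log2 scale) against the length tilt of each of the 8 libraries, the median deviation of long minus that of short transcripts (vSSC red, lbSSC blue, squares male, circles female, replicate numbers beside the points). Peg3 and Plagl1 have the sign of the tilt in all 8 libraries, Nnat has the opposite sign in 6, and Ndn and Sgce stay near 0.

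Sex was tested as a contrast that had no part in picking Nnat. Of the 10 members 0 were called for males against females in a fit that also held site, beside 0.0466% of all genes, and 1 of 10 had an unadjusted limma p under 0.05, beside 8.31%. That member was Dlk1, lower in males by value (-0.30 ± 0.13, SE, unadjusted p = 0.0339, limma adjusted p = 0.585). Nnat differed by 0.36 ± 0.32 (SE, limma adjusted p = 0.722). Each sex had 2 libraries per site, which limits what this contrast can show.

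For the interaction of site and sex 0 members were called by limma, beside 0% of all genes, and 0 of 10 had an unadjusted p under 0.05, beside 3.77%. In lbSSC both males lay below both females for Dlk1, Peg3 and Plagl1. The length tilt also splits the lbSSC libraries by sex, so sex and tilt cannot be told apart there. For Dlk1 the interaction was 0.35 ± 0.23 (SE, limma adjusted p = 0.981).

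Many imprinted genes lie in clusters that share a control region, and the neighbours of the members were read next. Of 37 measured genes of the same domains, 25 were tested, with 1 higher in vSSC, 5 lower and 19 not called, beside the 14.3% and 9.17% of all genes. Their median difference was -0.19 on the log2 scale, beside 0.08 for all tested genes. The higher one was Ddc, an enzyme of dopamine and serotonin synthesis beside Grb10, at 4.24 ± 0.346 FPKM in vSSC and 1.98 in lbSSC (difference 0.87 ± 0.21, SE, limma adjusted p = 0.0144). Cobl, an actin nucleator of the same domain, was lower (-0.59, limma adjusted p = 0.0234), so the neighbours of Grb10 moved in opposite directions.

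The other neighbours that were lower in vSSC belong to the domains of Dlk1, Plagl1, Peg3 and Mest, of which Mest itself did not pass. Begain, a synaptic scaffold protein of the Dlk1 domain, was at 0.895 ± 0.213 and 2.14 ± 0.398 FPKM (SD, difference -0.72, limma adjusted p = 0.0092). Phactr2, a regulator of phosphatase and actin beside Plagl1, was at 2.77 ± 0.282 and 5.05 ± 1.03 (SD, difference -0.67, limma adjusted p = 0.0107). Zim1, a zinc finger gene beside Peg3, fell by 0.53 (limma adjusted p = 0.0452), and Klf14, a transcription factor of the Mest domain, by 0.62 (limma adjusted p = 0.0377). Zim1 and Klf14 overlapped between sites. The call for Zim1 was lost without any 1 of vSSC replicates 1, 2 or 3 or lbSSC replicates 3 or 4 (adjusted p up to 0.132). Klf14 lost its call without vSSC replicates 1 or 3 or lbSSC replicates 2, 3 or 4 (up to 0.106), and Cobl without vSSC replicates 1 or 3 or lbSSC replicates 2 or 4 (up to 0.0660).

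Igf2, Peg10 and Magel2 did not pass as deposited. Igf2, the fetal growth factor of the Cdkn1c region, ranged from 1894 to 2514 FPKM in vSSC and 2538 to 2894 in lbSSC, without overlap (-0.32, limma adjusted p = 0.0868). Peg10, a retrotransposon-derived gene head to head with Sgce, differed by -0.54 (limma adjusted p = 0.0583), and Magel2, next to Ndn, by -0.40 (limma adjusted p = 0.162). Igf2 was called lower under each of the 3 scalings and without vSSC replicate 4 (limma adjusted p from 0.0244 to 0.0417). Peg10 was called lower in 5 alternatives (limma adjusted p from 0.0180 to 0.0497). The count of called neighbours rose to 12 after rescaling to one sum, and fell to 3 without lbSSC replicate 4 and to 2 without vSSC replicates 1 and 3.

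**Figure D5:**
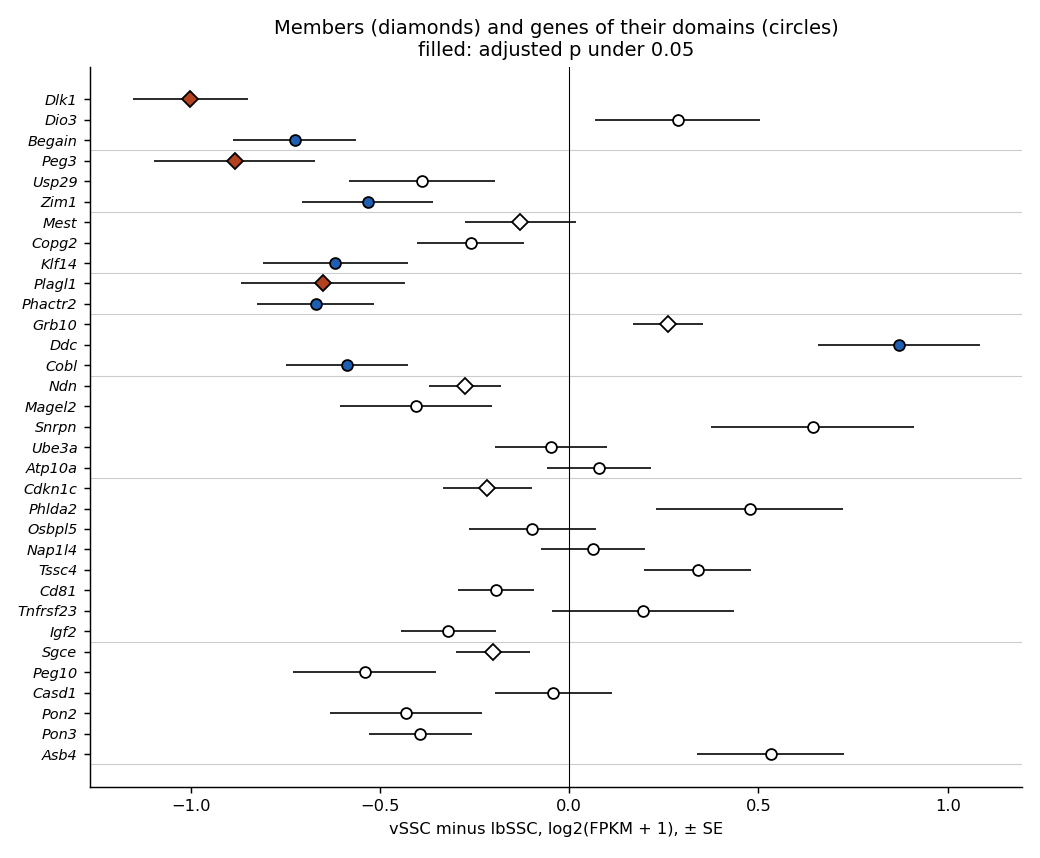
Difference between sites (vSSC minus lbSSC, log2(FPKM + 1), bars of 1 SE) of 8 members (diamonds) and of the tested genes of their imprinted domains (circles), 1 row per gene with lines between domains and filled points for an adjusted p under 0.05. In the Grb10 domain Ddc is called higher and Cobl lower, and Dlk1 and Begain are both called lower.

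Imprinted genes of other domains were read in the same way. Of 25 measured, 15 were tested, with 1 higher in vSSC, 4 lower and 10 not called, beside 14.3% and 9.17% of all tested genes. The median difference was -0.41, beside 0.08. Slc38a4, an amino acid transporter, was higher at 42.1 ± 2.77 against 17.2 ± 4.84 FPKM (SD). Its difference was 1.28 ± 0.18 (SE, limma adjusted p = 0.000453). Gab1, a docking protein of receptor signalling, was lower at 5.66 ± 0.813 against 13.3 ± 2.11 (SD, difference -1.10, limma adjusted p = 0.000358). Dcn (decorin, a matrix proteoglycan) fell by 0.57 (limma adjusted p = 0.00333), Gnas (the stimulatory G protein subunit) by 0.50 (0.0118) and Trappc9 (a vesicle transport protein) by 0.42 (0.0351). Igf2r, the receptor that clears IGF2, differed by -0.50 (limma adjusted p = 0.118). The call for Trappc9 held among single-library exclusions only without vSSC replicate 4, and otherwise its adjusted p was up to 0.106. Of the genes called in these lists, Slc38a4 had the largest excess at the spine.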

How the data were processed

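Bulk RNA-seq libraries were grouped by title, replicate number and sex from the labels. The authors deposited FPKM for each protein-coding gene, a unit that depends on the library's total. The tools were STAR 2.5.2, Cufflinks 2.1.1 and bcl2fastq 2.19 with build GRCm38, per the submitters' processing notes. Settings were not given in the sources used here. Per the labels' protocols, SMART-Seq v4 and Nextera XT chemistry was used, which does not mark strand. Rows that carry a low-data flag stayed in, and 1 was added to each start.

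In R 4.3.3, log2(FPKM + 1) was taken and a gene was tested if 4 or more of the 8 libraries held it at 1 FPKM or above, which left 10729 genes. The test was limma 3.58.1 (empirical Bayes with a variance trend) for site with no covariate, for sex with site as a covariate, and for their interaction. A gene was called where its p, adjusted by Benjamini and Hochberg, was under 0.05. The procedure was tested on simulated data. Within-site scatter was the pooled SD, ranked among the 500 tested genes nearest in level.

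The members and gene lists were chosen with earlier results of these data known. Named genes were all members, up to 5 called genes per direction of each imprinted list, Igf2, Igf2r, Peg10, Gnas and Magel2, and the 5 genes most like Nnat. Alternatives changed the pseudocount, filter, scaling, variance trend, covariates, replicate block and libraries used. Those without vSSC replicates 1 and 3, with the length trend removed (loess, span 0.5) and with a covariate of ribosomal protein share were chosen after seeing the data. Marker genes named beside the members were chosen after their values were seen. Some marker genes are not reported here.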

Additional observations from a re-analysis of the deposited data

Results flagged for a closer look

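A library far from the others of its site was found in 3 of 50 groups of 4 libraries checked (members and named imprinted genes, by Dixon's ratio against 0.829), and chance gives about 1 in 20. Dlk1 was lowest in vSSC replicate 1, at 889.9 FPKM. Dcn was lowest in lbSSC replicate 3, at 1065 FPKM. Trappc9 was highest in the same library, at 5.75 FPKM.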

How the results depend on the processing

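Of all tested genes 2518 were called between sites, 60.9% of them higher in vSSC. That share was 49.5% with median-of-ratios scaling, 50.1% with quantile normalization and 42.4% after rescaling to one sum. With no filter 1450 genes were called, without vSSC replicates 1 and 3 together 1095, and with a covariate of ribosomal protein share 614. Leaving out 1 library gave 1534 to 2991, and the counts were 1673 and 1646 when vSSC replicates 1 and 3 were dropped singly, and 1534 and 1589 when lbSSC replicates 3 and 4 were.

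Of the 9 members 3 were called, 6 under each of the 3 scalings, 1 (Dlk1) without vSSC replicates 1 and 3, 1 with the ribosomal covariate and 2 to 3 when 1 library was left out. Of the domain neighbours 6 were called, 3 with a filter at an FPKM of 5, 10 with median-of-ratios scaling, 12 after rescaling to one sum, 2 without vSSC replicates 1 and 3, 0 with the ribosomal covariate and 3 to 9 when 1 library was left out (3 without lbSSC replicate 4). Of the other imprinted genes 5 were called, 2 with the ribosomal covariate and 4 to 7 when 1 library was left out. The Nnat difference was 2.05 with that covariate and 2.60 to 3.10 when 1 library was left out. For sex 5 genes were called, 3 with no filter, 3 with a filter at an FPKM of 5 and 5 to 7 when 1 library was left out, and member counts for sex and interaction were 0 in each of 19 alternatives. With the ribosomal covariate, whose share overlaps little between the sites, the sign turned for Mest (0.0858), Plagl1 (0.20), Igf2r (0.34), Peg10 (0.0927) and Magel2 (0.19), and the cause was not tested.

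With the replicate number as a block 3194 genes, 3 members and 12 domain neighbours were called. Correlations of the same-numbered deviations were 0.257, -0.0878, -0.0639 and 0.435, and vSSC replicates 2 and 3 correlated best with lbSSC replicates 4 and 1, so same-numbered samples share a number and a sex, with no further pairing given. Depth is unknown, which limits what can be said of genes near 1 FPKM such as Begain and Magel2.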
